A study of Homo sapiens with 21 samples.

Results

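Boundary viewpoints are DNA fragments at a CTCF binding site (CBS) that lies at the edge of the domain of a gene, and their 3-way contacts were compared between induced macrophages at 96 h and B cells at 0 h. The members are the 51 loci whose boundary was captured by Tri-C at both times, with 1 deposited table a locus and time, which makes 102 of the 371 tables of the series. All cells were BLaER (BLaER1 in the study), a leukemia cell line of B cell origin in which an estradiol-inducible C/EBPα turns B cells into macrophages. The 96 h cells had received estradiol, IL-3 and CSF-1 for 96 h, and the 0 h cells, which carry the same transgene, had been kept in medium without these factors. The study picked 36 loci for genes used in induced macrophages (iMac loci) and 15 for genes used in B cells (B cell loci). This labelling comes from the study and was not checked here, since the tables hold contacts and no expression. A single transgenic leukemia line stands for both cell types.

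CTCF is a zinc-finger protein that binds an oriented DNA motif and stops the extrusion of chromatin loops by cohesin. Loops are held best between sites whose motifs face each other, so a bound site often contacts the chromatin on 1 of its flanks more than on the other. Domain boundaries rich in CTCF are known to limit which enhancers meet which promoters, and CTCF sites near genes have been described as anchors that bring enhancers and promoters together. Tri-C digests crosslinked chromatin with NlaIII, ligates the pieces, enriches for the viewpoint by hybridisation and reads several ligated fragments at once. Each value in the tables is the number of times that 2 fragments (reporters) were joined to the same viewpoint.

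The 3 biological replicates of a time were pooled in each table, so there was 1 library a locus and time and no spread between replicates could be measured. Every test below compares these 2 pooled libraries and not the conditions. A read with several reporters was counted once for each pair, so counts are not independent, and intervals cover counting error only. The 51 tables of a time came from the same 3 cultures, so the loci are not replicates of a condition. Tables held 18795 to 105157 counts at 96 h (median 59986) and 19423 to 96551 at 0 h (median 59298). Of these, 67.0% at 96 h and 69.2% at 0 h had both reporters within 1 Mb of the viewpoint, and this number was the denominator of every share unless stated otherwise. The total of a locus at 96 h was 0.846 to 1.34 times that at 0 h.

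The boundary sat 2.25 to 1067 kb from the promoter of its gene (median 150 kb) and 21.2 to 819 kb from the enhancer that the study had captured in separate libraries (median 140 kb). Enhancer and promoter lay on the same side of the boundary at 50 of the 51 loci, CD38 being the exception. Of the boundaries, 24 were in an intron of a coding gene, 4 in an intron and 2 in an exon of a long non-coding RNA gene, 3 in an exon of a coding gene and 18 between genes. These hosts were mostly other genes than the one the locus is named for. The boundary of NFKBIZ, an atypical IκB protein of inflammatory gene control, lay in an intron of ZPLD1, and that of MYB, a progenitor transcription factor, in an intron of AHI1. The boundary of SRGN, the granule proteoglycan serglycin, lay in an exon of KIFBP, and that of PAX5, the factor that keeps B cell identity, in an intron of ZCCHC7.

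The sequences below, from the hg38 reference on its plus strand, are shown because the loci carry contrasting results and because motif orientation decides on which flank a bound site is expected to loop. Capitals mark the best match to the 12-base core of the CTCF motif, and a match on the minus strand reads as its reverse complement. Of the matches shown, only that of LMO2 lies inside the captured fragment. The others lie outside it, by 31 bases (NFKBIZ) to 312 bases (SRGN).
NFKBIZ boundary, chr3:102225570-102225629, minus strand, 1 mismatch, pointing toward the gene: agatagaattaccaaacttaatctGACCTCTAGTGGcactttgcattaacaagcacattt
MYB boundary, chr6:135423821-135423880, minus strand, 2 mismatches, toward the gene: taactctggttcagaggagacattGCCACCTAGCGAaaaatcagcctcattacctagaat
FOSL2 boundary, chr2:28452637-28452696, minus strand, 1 mismatch, toward the gene: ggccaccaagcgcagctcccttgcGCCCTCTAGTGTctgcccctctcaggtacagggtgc
SRGN boundary, chr10:69007420-69007479, minus strand, 1 mismatch, away from the gene: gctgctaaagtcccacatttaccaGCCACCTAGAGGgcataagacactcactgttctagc
LMO2 boundary, chr11:33858003-33858062, plus strand, 1 mismatch, toward the gene: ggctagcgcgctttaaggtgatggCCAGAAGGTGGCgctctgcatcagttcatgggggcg
RAG2 boundary, chr11:36564524-36564583, plus strand, 2 mismatches, toward the gene: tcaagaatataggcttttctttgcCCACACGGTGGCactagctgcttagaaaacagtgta
PAX5 boundary, chr9:37309540-37309599, minus strand, 1 mismatch, toward the gene: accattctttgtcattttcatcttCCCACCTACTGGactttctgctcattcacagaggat
A match with at most 1 mismatch, on either strand and within 500 bases of the captured fragment, was found at 30 of the 51 boundaries, and 27 of these pointed toward the gene and 3 away from it. Of all 1181-base windows tiled over the regions around the viewpoints, 7.02% held such a match. With 2 mismatches allowed the numbers were 46 boundaries, 38 toward and 8 away, but 48.4% of the windows then held one, so these matches identify little. Within 500 bases of the CCR1 fragment (chr3:46378308-46378430) there was none. A match is a description of the letters and no evidence of binding.

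The first question was whether a boundary met the promoter of its gene more often in macrophages. A contact of the boundary (C) with the promoter window (P, 12 kb centred on the start of the gene) and any other reporter (X) is called C-P-X. Only distant counts were used for it, in which neither reporter is within 10 kb of the viewpoint and the reporters are over 10 kb apart. Changes are given as the log2 of the ratio, 96 h over 0 h, between the counts in the window and all other counts of the viewpoint. A change was called where the exact binomial test gave an adjusted p under 0.05 and the log2 ratio was at least 0.5 in size. C-P-X could be measured at 46 loci, where it took 0.173% to 5.11% of the counts at 96 h (median 1.27%) and 0.169% to 3.38% at 0 h (median 0.816%). It rose at 23 loci, fell at 2 and was not called at 21, with a median log2 ratio of 0.51. For comparison, 19.5% of all 12-kb tiles on the gene side of the boundaries were called higher and 6.98% lower, with a median of 0.13. Calls in these tiles varied with depth. Of gene-side tiles with 100 counts or more over both times, 23.7% were higher and 5.93% lower (median 0.15). Of those with under 100 counts, 8.17% were higher and 9.83% lower. On the other side 6.13% were higher and 15.6% lower (median −0.12). Over both sides 13.0% were higher and 11.2% lower (median 0.01). The window as far away on the other side of the boundary, measured at 45 loci, was higher at 4 and lower at 7 (median −0.05). The promoters of CD14, MXD1, KLF4 and BCL11A were too close to their viewpoint and that of CITED2 too far from it to be measured.

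The rise was not limited to the promoter window. The 2 windows that touch it, summed, rose at 19 of 45 loci and fell at 1 (median 0.40). The promoter window had the higher ratio at 35 of these 45 loci, but among the 23 loci called higher it exceeded its flanks by 0.3 or more at only 7. Whether the excess of a promoter over its flanks differs from that of other windows was not tested.

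CCR1, a chemokine receptor of monocytes and macrophages, had the most counts in its promoter window at 96 h. This promoter, 170 kb from the boundary, was in 2216 of 74512 counts at 96 h and in 922 of 69518 at 0 h. These are shares of 2.97% (95% exact interval 2.85 to 3.1) at 96 h and 1.33% (1.24 to 1.41) at 0 h. The log2 ratio was 1.19 (95% interval 1.08 to 1.30; exact binomial test, adjusted p = 6.4e-104). The flanking windows rose by nearly as much, 0.94, and the window at the same distance on the far side by 0.69. Over all tiles of the far side the median log2 ratio was −0.54, and over those of the gene side it was −0.03. The start of CCR2, a neighbouring receptor gene, lies 24.3 kb from the boundary. It fell, with 917 counts at 96 h and 1356 at 0 h (log2 ratio −0.67, exact binomial test, adjusted p = 2.2e-26).

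**Figure D1:**
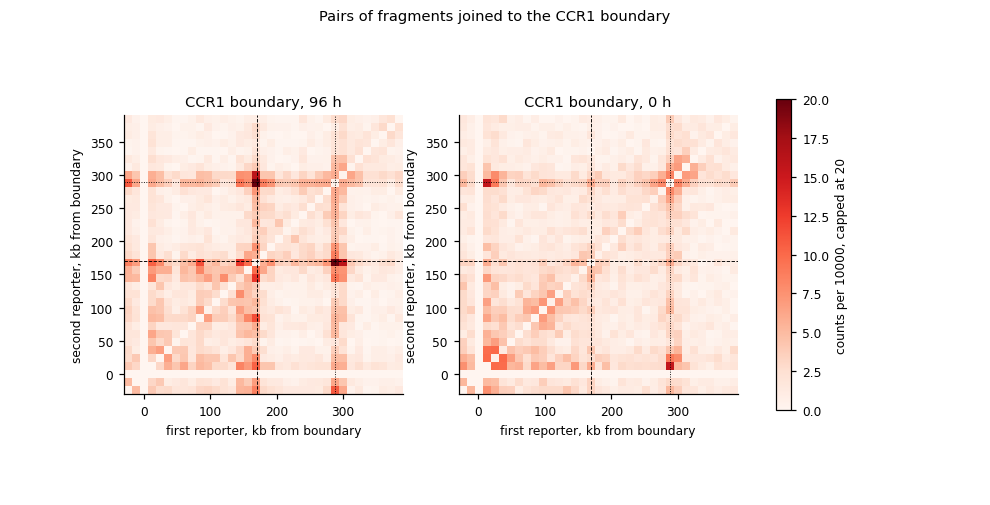
Pairs of fragments joined to the CCR1 boundary, as counts per 10000 in square bins, at 96 h and at 0 h. Axes are the distances of both reporters from the boundary in kb, with the gene side positive, and darker bins hold more counts. Dashed lines mark the promoter and dotted lines the enhancer. The stripe at the enhancer window 289 kb away is strong at both times, with a C-E-X share of 3.25% at 96 h and 2.68% at 0 h. The promoter stripe is stronger at 96 h, with shares of 2.97% at 96 h and 1.33% at 0 h.

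Among myeloid transcription regulators C-P-X rose at 8 of 10 measured loci and fell at none (median 0.88). KLF6, a zinc-finger factor, rose to 0.8% at 96 h, against 0.323% at 0 h, over 872 kb (log2 ratio 1.31). NFKBIZ had 893 counts at 96 h (2.08%) and 316 at 0 h (0.934%), a log2 ratio of 1.17 (0.99 to 1.36). The window opposite its promoter, on the far side, held 66 counts at 96 h and 106 at 0 h (−1.02), so the boundary gained on 1 side and lost on the other. IRF8, a factor of monocyte and B cell fate, rose with a log2 ratio of 0.69, and its flanks moved by 0.65. The 2 of the 10 that were not called were LMO2, an adaptor of haematopoietic transcription complexes (2.01% at 96 h and 1.78% at 0 h), and KDM7A, a histone demethylase (1.7% at 96 h and 1.49% at 0 h).

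Of 12 surface and secreted proteins, 6 rose and none fell (median 0.49). SRGN held the largest C-P-X share of any locus at both times. Its promoter, 81.1 kb away, was in 1898 counts at 96 h (5.11%) and 1279 at 0 h (3.38%), a log2 ratio of 0.62 (0.52 to 0.73; exact binomial test, adjusted p = 2.9e-31). The opposite window fell to 121 counts at 96 h, against 231 at 0 h. Of 10 signalling and other genes, 4 rose and 1 fell (median 0.45). TRIB1, a pseudokinase that controls C/EBPα turnover, had 1046 counts at 96 h (1.75%) and 408 at 0 h (0.885%), with a log2 ratio of 1.00. Its flanks rose more than the promoter itself, by 1.36.

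The B cell loci showed rises as well. C-P-X rose at 5 of 14 and fell at 1 (median 0.40), against 18 of 32 and 1 at iMac loci (median 0.61). The difference between the 2 classes was not tested. EBF1, a founding factor of the B lineage, had the largest ratio of any locus. Its promoter, 934 kb from the boundary, was in 245 counts at 96 h (0.508%) and 83 at 0 h (0.169%), a log2 ratio of 1.59 (1.23 to 1.97; exact binomial test, adjusted p = 8.1e-19). The flanks rose by 1.55, so the gain covered a wider stretch than the promoter. DNTT, the terminal transferase of receptor gene rearrangement, rose to 1.5% at 96 h, against 0.615% at 0 h. Its log2 ratio was 1.30, beside 0.62 in its flanks. IRAG2, an endoplasmic reticulum protein of lymphoid cells, had a log2 ratio of 1.28, and MYB one of 0.91, with 509 counts at 96 h and 303 at 0 h. IGLL1, part of the surrogate light chain, was the fifth to rise, at 0.53, and it shares near-identical sequence with other light chain genes, so its counts are uncertain. RORB, a nuclear receptor, fell to 238 counts at 96 h, against 330 at 0 h (log2 ratio −0.58). RAG2, a subunit of the recombinase, had 904 counts at 96 h (2.06%) and 970 at 0 h (1.87%). Its difference was not called (log2 ratio 0.14, interval 0.01 to 0.27; exact binomial test, adjusted p = 0.097).

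**Figure D2:**
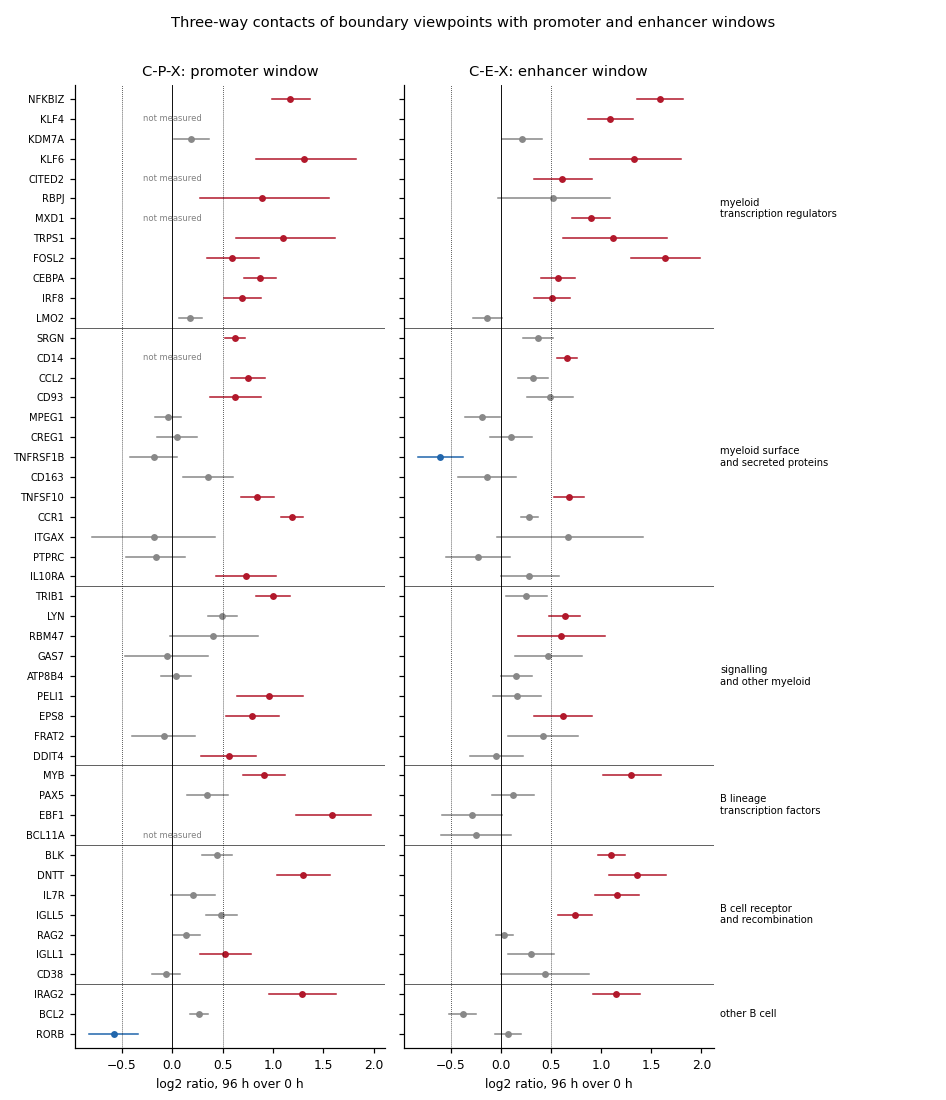
Log2 ratio, 96 h over 0 h, of counts in the promoter window and in the enhancer window for 48 loci, iMac loci and B cell loci. Points are loci with 95% exact intervals that cover counting error only. Most promoter points lie to the right of 0, with 22 of the 43 drawn called higher and 1 lower. Enhancer points were called higher at 20 of 48 loci and lower at 1.

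The enhancer captured for each gene was met more often too. Contacts with the enhancer window and any other reporter, C-E-X, were measured at all 51 loci. They took 0.264% to 5.31% of the counts at 96 h (median 0.984%) and 0.195% to 4.94% at 0 h (median 0.683%). They rose at 21 loci and fell at 1 (median 0.43). Windows opposite the enhancers rose at 1 of 50 and fell at 7 (median −0.10), and the flanking windows rose at 17 of 46 and fell at none (median 0.25). Within the iMac loci, rises were again most frequent among transcription regulators, at 10 of 13 with a median of 0.90. There were 2 rises and 1 fall among 13 surface and secreted proteins (0.28) and 3 rises among 10 signalling and other genes (0.34).

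FOSL2, a Fos-family partner in AP-1 dimers, had 281 counts at 96 h (0.807%) and 98 at 0 h (0.261%) at an enhancer 497 kb away, inside an intron shared by BABAM2 and MRPL33. Its log2 ratio was 1.63 (1.30 to 1.98; exact binomial test, adjusted p = 4.0e-23), beside 0.47 in the flanking windows. NFKBIZ rose to 1.72% at 96 h, against 0.58% at 0 h (log2 ratio 1.58, flanks 1.19). KLF4, a macrophage and stem cell factor, had a log2 ratio of 1.09 with 0.74 in its flanks. CD14, the monocyte co-receptor for lipopolysaccharide, rose to 5.31% at 96 h, against 3.43% at 0 h. TNFRSF1B, a receptor for tumour necrosis factor, was the only locus called lower, with 274 counts at 96 h and 420 at 0 h (log2 ratio −0.61, interval −0.83 to −0.38).

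At B cell loci C-E-X rose at 6 of 15 and fell at none (median 0.30), against 15 of 36 and 1 at iMac loci (median 0.48). The rises belonged mostly to genes of the B cell receptor and recombination, at 4 of 7. DNTT had 349 counts at 96 h (1.32%) and 146 at 0 h (0.519%), a log2 ratio of 1.36. IL7R, the receptor for a growth factor of early lymphocytes, had 536 counts at 96 h and 265 at 0 h over 819 kb (1.15). BLK, a Src-family kinase of B cells, rose to 2.13% at 96 h, against 1.01% at 0 h (1.10). MYB had 321 counts at 96 h and 145 at 0 h (1.30), and IRAG2 2.78% at 96 h and 1.27% at 0 h (1.15). RAG2 had the largest 0 h share of all loci and nearly the same at 96 h, with 5.05% at 96 h and 4.94% at 0 h (log2 ratio 0.03, interval −0.05 to 0.12).

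Promoter and enhancer did not always move together. Of the 46 loci where both were measured, both rose at 12, the promoter alone at 11, the enhancer alone at 5 and neither at 18. CCR1 is a case of the second kind. Its enhancer share was 3.25% at 96 h and 2.68% at 0 h (log2 ratio 0.28, interval 0.20 to 0.37, under the minimum of 0.5), beside 1.19 for its promoter. At EBF1 the enhancer had 170 counts at 96 h and 212 at 0 h (−0.29, not called) while the distant promoter rose.

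**Figure D3:**
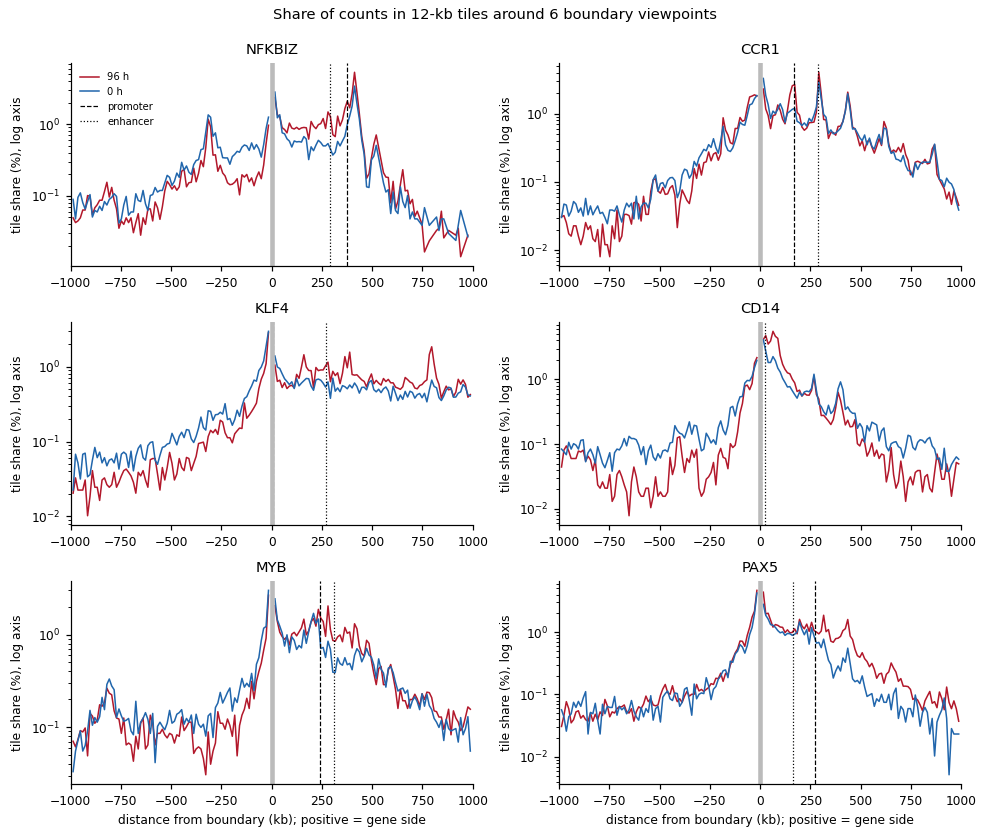
Share of a viewpoint's counts in each 12-kb tile, on a log axis, against the distance from the boundary in kb with the gene side positive, for 6 loci at 96 h and at 0 h. Coloured lines are the pooled libraries with no error drawn, and vertical lines mark the promoter (dashed) and the enhancer (dotted). At NFKBIZ the gene side rises and the other side falls, with tile medians of 0.53 and −0.71 as log2 ratios.

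Where 1 reporter lies in the enhancer window and the other in the promoter window, boundary, enhancer and promoter were joined in 1 molecule. Such C-E-P contacts were rare. They reached 20 counts over both times at 27 loci, where they made up 0.011% to 0.305% of the counts at 96 h (median 0.070%) and 0.0019% to 0.301% at 0 h (median 0.0353%). They rose at 13 loci and fell at 1 (median 1.03), with 11 of 18 higher and none lower at iMac loci (median 1.50) and 2 of 9 higher and 1 lower at B cell loci (median 0.02). Most of these calls depended on the depth and window, since of the 14 calls only 3 remained with all counts divided by 3 and 3 with 7.5-kb windows. Among pairs of gene-side tiles 10.4% were called higher and 2.16% lower (median 0.25).

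CCR1 had 40 such counts at 0 h, 105 at 24 h and 208 at 96 h. The log2 ratio of 96 h over 0 h was 2.27 (1.79 to 2.81; exact binomial test, adjusted p = 9.7e-25). This is more than the change of the promoter or the enhancer window taken alone. SRGN had 103 counts at 96 h and 42 at 0 h (1.31, 0.79 to 1.88). TNFSF10, the death ligand TRAIL, had 57 at 96 h and 14 at 0 h, and LYN, a Src-family kinase of myeloid and B cells, 38 at 96 h and 10 at 0 h. Few counts carried the largest ratios. IRF8 had 31 counts at 96 h and 6 at 0 h (2.47, 1.28 to 4.11), and NFKBIZ 30 at 96 h and 5 at 0 h (2.13, 0.86 to 3.97). TRIB1 had 23 counts at 96 h and 3 at 0 h, and DDIT4, a stress-induced inhibitor of mTOR, 18 at 96 h and 2 at 0 h. These intervals are so wide that an order among these loci cannot be read. CCL2, a monocyte chemokine (52 counts at 96 h and 23 at 0 h), and IL10RA, a receptor chain for interleukin 10 (18 at 96 h and 5 at 0 h), rose as well. The IL10RA ratio turned to −0.061 in 7.5-kb windows.

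At B cell loci the picture was mixed. DNTT rose, with 20 counts at 96 h and 3 at 0 h (2.64, 1.08 to 5.23), and so did BLK, with 57 at 96 h and 36 at 0 h. PAX5 was the one locus that fell, with 5 counts at 96 h and 19 at 0 h (−2.06, −3.94 to −0.69; exact binomial test, adjusted p = 4.5e-03). RAG2 had 134 counts at 96 h and 156 at 0 h (0.02, −0.32 to 0.36), an interval that lies wholly below that of CCR1. At 19 loci with a measurable promoter there were under 20 counts and no test was made. FOSL2, the locus whose enhancer exceeded its flanks by the most among those called, had 11 counts at 96 h and 0 of 37564 at 0 h, which allows a 0 h share of up to 0.00799% if 0 is read as fewer than 3 counts and of up to 0.00982% by the exact interval.

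**Figure D4:**
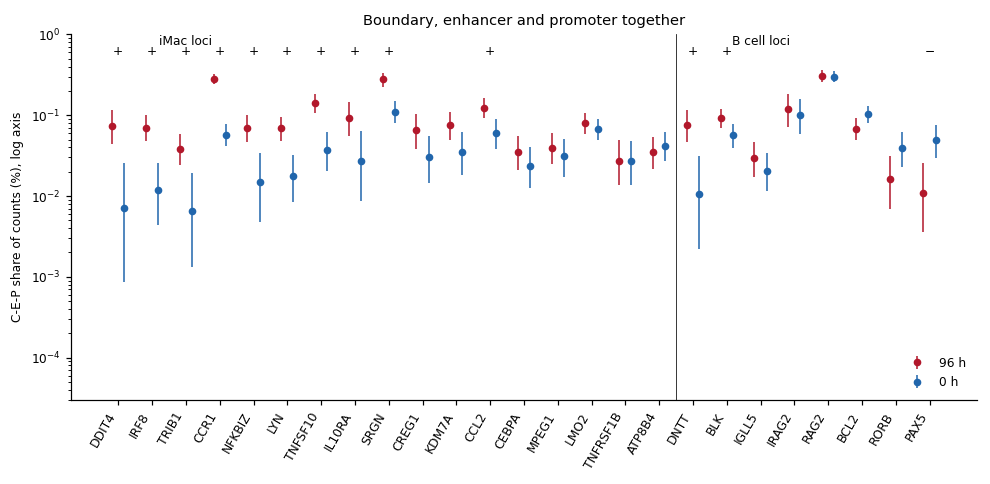
C-E-P contacts as a share of the viewpoint's counts, on a log axis, at 96 h and at 0 h for 25 of the 27 measured loci. Bars are 95% exact intervals for counting error, and a plus or minus sign marks a call higher or lower at 96 h. CCR1 stands at 0.279% at 96 h and 0.0575% at 0 h, while RAG2 stands at 0.305% at 96 h and 0.301% at 0 h.

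A further question was whether the profile of a boundary as a whole shifted toward its gene. The gene-side share is the share of distant counts, as defined above, with both reporters on the side of the gene. It was higher at 96 h at 40 of 51 loci. It passed the call at 14 loci (27.5%) and was called lower at 1 (1.96%), with a median log2 ratio of 0.29. Log2 ratios of this share, and of the share beyond 200 kb below, also set the counts inside the share against the other counts. They are therefore larger in size than the log2 of the ratio of the percentages. The 51 shares had a median of 55.6% at 96 h and 51.4% at 0 h. At iMac loci 12 of 36 rose and none fell (median 0.34), and at B cell loci 2 of 15 rose and 1 fell (median 0.10). The tiles of the gene side had a higher median ratio than those of the other side at 36 loci.

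NFKBIZ changed most, with 67.2% (66.4 to 68.0) of 14326 distant counts at 96 h and 43.0% (42.0 to 44) of 9807 at 0 h (log2 ratio 1.44). Its motif match, shown above, points toward the gene. KLF4 had 73.3% at 96 h and 55.6% at 0 h. SRGN had 69.6% at 96 h and 53.8% at 0 h, and its best motif match points away from the gene. Whether motif orientation is related to the shift was not tested. CD14 had 69.9% at 96 h and 54.3% at 0 h. MYB, with 68.9% at 96 h and 56.5% at 0 h, and BLK, with 69.1% at 96 h and 61.0% at 0 h, were the B cell loci that rose. RORB fell to 30.1% at 96 h, against 39.3% at 0 h, the same locus whose promoter contacts fell. CCR1 had 59.2% at 96 h and 59.3% at 0 h, while its promoter window rose. Contacts that spanned the boundary, with 1 reporter on each side, were called lower at NFKBIZ (23.9% at 96 h and 35.2% at 0 h) and KLF4 (20.2% at 96 h and 28.6% at 0 h) and higher at no locus by the exact binomial test.

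**Figure D5:**
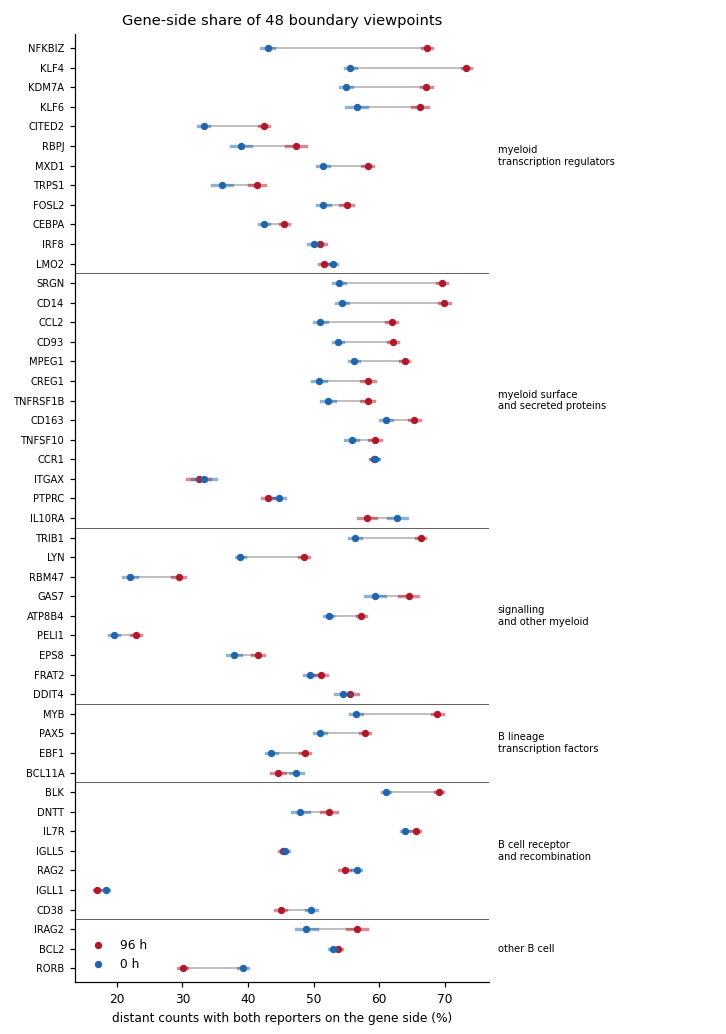
Share of distant counts with both reporters on the gene side, in percent, for 48 of the 51 boundary viewpoints at 96 h and at 0 h, with 95% exact intervals for counting error as bars. The 96 h point lies to the right of the 0 h point at 37 of these loci, by most at NFKBIZ with 67.2% at 96 h and 43.0% at 0 h.

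How far a boundary reached changed at few loci. The share of counts with at least 1 reporter beyond 200 kb was called higher at 4 loci (7.84%) and lower at 1 (1.96%), with a median log2 ratio of 0.08. PAX5 stood out, with 52.4% at 96 h and 33.8% at 0 h (log2 ratio 1.11). At this locus 55 of 164 tiles rose and 2 fell. The tile 652 kb toward the gene side held 146 counts at 96 h and 22 at 0 h, while the promoter window, 275 kb from the boundary, held 511 at 96 h and 342 at 0 h and was not called (0.35). KLF4 (71.3% at 96 h and 60.1% at 0 h), IL7R (63.1% at 96 h and 54.2% at 0 h) and CITED2, a transcriptional coregulator (63.1% at 96 h and 53.5% at 0 h), also reached farther. CD14 went the other way, with 21.7% at 96 h and 38.0% at 0 h. Here 84 of 164 tiles fell and 13 rose, and the tile 64 kb from the boundary on the gene side held 2128 counts at 96 h and 887 at 0 h. The CD14 boundary, 2.25 kb from the promoter of the gene, thus had a narrower profile at 96 h.

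Promoters of other genes within 1 Mb did not rise as a group. Of 869 measured windows 86 rose (9.90%) and 107 fell (12.3%), with a median of −0.02. Without the CD14 locus, which held 49 of the falls, 82 rose and 58 fell of 794. Their sides differed much as the tiles did. On the gene side 69 of 377 rose and 20 fell, and on the other side 17 of 492 rose and 87 fell. Gene-side tiles with an annotated gene start were higher in 21.9% of cases and those without one in 19.3%. The largest rise was at ADD2, a membrane skeleton protein, 856 kb from the MXD1 boundary, with 81 counts at 96 h and 24 at 0 h (log2 ratio 1.84). At the CD14 locus SRA1, a steroid receptor coactivator, had 1824 counts at 96 h and 711 at 0 h (1.44), and EIF4EBP3, a translation repressor whose window is next to it, had 1708 at 96 h and 614 at 0 h (1.55). PCNP, a nuclear protein 651 kb from the NFKBIZ boundary, had 98 counts at 96 h and 32 at 0 h (1.26). Others of the 10 largest rises were CST9 and CSTL1, a pair of related cystatin genes at the CD93 locus, HMSD at BCL2, UBE4A at IL10RA and APBB2 at RBM47, with log2 ratios of 1.28 to 1.49. The 10 largest falls were mostly protocadherin genes of the CD14 locus, led by PCDHA3 with 12 counts at 96 h and 61 at 0 h (−2.26). The protocadherin genes are similar copies whose windows partly overlap, so they are not separate observations and their counts are uncertain. The others were SLC25A16, a mitochondrial carrier, beyond the SRGN boundary with 14 counts at 96 h and 56 at 0 h (−1.94), and MS4A2, a chain of the IgE receptor, at the MPEG1 locus with 21 at 96 h and 56 at 0 h (−1.59), along with SLC25A2 and PSD2 at the CD14 locus.

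The libraries at 24 h place these changes in time. C-P-X at 24 h was called higher than at 0 h at 12 of 46 loci and lower at 2 (median 0.18), and at 96 h it was higher than at 24 h at 13 and lower at none (median 0.29). In gene-side tiles 14.1% were higher and 1.45% lower at 24 h than at 0 h, and 7.3% were higher and 9.27% lower at 96 h than at 24 h. For C-E-X the numbers were 9 higher and 0 lower at 24 h than at 0 h (median 0.09), and 17 higher and 0 lower at 96 h than at 24 h (median 0.30), by the exact binomial test. The promoter of NFKBIZ held 0.934% at 0 h, 1.52% at 24 h and 2.08% at 96 h. That of CCR1 held 1.33% at 0 h, 1.78% at 24 h and 2.97% at 96 h. At the 23 loci with a called rise of C-P-X at 96 h, the 24 h share lay between the other 2 at 21. The comparisons share libraries, so they are not separate evidence. The gene-side share at 24 h lay between those of 0 h and 96 h at all 14 loci called higher, for example 43.0% at 0 h, 54.2% at 24 h and 67.2% at 96 h for NFKBIZ.

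Seen from the enhancers of the same loci, captured in separate libraries, the classes moved in opposite directions. Contacts of the enhancer with the promoter and any other reporter were called higher at 29 iMac loci of 36 and lower at 0 (median 1.00), and at B cell loci they were called lower at 12 of 15 and higher at 0 (median −0.75). In these libraries 14.0% of all tiles were called higher and 25.1% lower. At 12 of the 14 B cell loci with both measures, the boundary ratio to the promoter was above 0 while the enhancer ratio to it was below 0. EBF1 is an example, with 0.224% at 96 h and 0.628% at 0 h from its enhancer and 0.508% at 96 h and 0.169% at 0 h from its boundary. The difference between viewpoints was not tested, since each is 1 pooled library.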

How the data were processed

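Tri-C tables deposited by the authors hold, for each viewpoint, a pair of NlaIII fragments and a raw count. Per the study's methods, reads were processed with CapCruncher and aligned to hg38, and the 3 replicates were pooled. The counts were not normalized. Fragments were read as hg38 coordinates, and gene starts came from GENCODE 44. The viewpoint of a locus was located from the fragments excluded in all libraries of its kind, boundary or enhancer. It overlapped the captured oligonucleotide at all 51 boundary viewpoints and at 50 of the 51 enhancer viewpoints, and all loci were kept. The enhancer position of the remaining locus, and the values that use it, are therefore uncertain. Counts with both reporters within 1 Mb gave the total. Windows and tiles were 12 kb wide, needed 20 counts over both times and a centre at least 16 kb from the viewpoint, and the pseudo-count was 0.5. Each was tested with a two-sided exact binomial test (SciPy 1.17.1), given the counts in and outside the window. Benjamini-Hochberg adjustment ran over 8806 windows, 27 loci (C-E-P) or 51 loci (shares). A call needed an adjusted p under 0.05 and a log2 ratio of at least 0.5. Shares have Clopper-Pearson intervals. The text names genes the study discusses, then the largest called rises and falls with at least 50 counts, 6 a direction for C-P-X and C-E-X, 4 for other measures and 10 for neighbouring promoters, and a few others chosen after their values were seen. Members and lists were chosen with earlier results of these data known. The scripts were tested on simulated data. The tables of 2 further loci were left out. Results of some loci are not reported here by name, though they enter all counts and medians.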

Additional observations from a re-analysis of the deposited data

How the results depend on the processing

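No paired analysis was possible because each table pools the replicates of its time, and for the same reason no replicate could be left out. Counts of loci called are given as higher and lower. C-P-X had 23 and 2. With 30-kb windows or each fragment pair counted once, 1 was lower, and with all counts divided by 3, 0 were lower. A minimum log2 ratio of 1 left 8 higher and 0 lower. C-E-X had 21 and 1. With totals over the chromosome, totals of distant counts only, or no minimum ratio, 3 were lower, with reporters more than 20 kb away 0 were lower, and a minimum of 1 left 11 higher and 0 lower. C-E-P had 13 and 1. Windows of 7.5 kb, which left 10 loci measured, gave 4 higher, and counts divided by 3, which left 8 measured, gave 3 higher. Of lower loci there were 0 with 30-kb windows, with pairs counted once and with counts divided by 3, 3 with chromosome totals and 2 with distant totals. The gene-side share had 14 and 1. With reporters up to 500 kb away 0 were lower, with no minimum ratio 38 were higher and 8 lower, and with a minimum of 1 there were 2 and 0. Reach had 4 and 1. It had 2 lower with pairs counted once or a limit of 400 kb, 7 higher with a limit of 100 kb, 29 higher and 17 lower with no minimum ratio, and 1 higher with a minimum of 1. Of neighbouring promoters 107 were lower, with 7.5-kb windows 66, and without the CD14 locus 58, an alternative chosen after seeing the data like Fisher's exact test for the shares (which changed none of those calls), the motif limit of 1 mismatch and the gene-side, flanking and opposite windows. With 7.5-kb windows the C-P-X ratio of RBPJ was −0.18 and the C-E-P ratio of IL10RA −0.061, and the cause was not tested. Dividing counts by 3 stands for reads counted several times, and it kept 17 of the 25 C-P-X calls and 17 of the 22 C-E-X calls in their direction. C-E-P is limited by depth, and pooled tables leave the variation between cultures unknown.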
